A study of Mus musculus with 3 samples.

Results

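AMPA receptors were examined in FACS RNA-Seq of tdTomato-positive cells sorted from the mouse hippocampus. The 10 genes followed were chosen by name, with earlier results of these data known. They are the core subunits Gria1, Gria2, Gria3 and Gria4, and 6 auxiliary proteins, Cacng2, Cacng3, Cacng8, Cnih2, Shisa9 and Prrt1. They were found by Ensembl identifier among the 52636 genes of the count table, and all 10 were matched. The series has 3 libraries and a single group. Each library is a biological replicate from pooled hippocampi of 2 to 4 male C57BL/6J mice aged 28 to 32 days, all Camk2a-Cre +/-, Ai14 +/-. In these mice the Camk2a promoter drives Cre in some excitatory neurons of the forebrain, and Cre switches on the tdTomato reporter. Live tdTomato-positive cells were sorted after papain digestion, and poly(A) RNA was sequenced. There is no untreated, mutant or unsorted group, so the values below are levels, and no difference between conditions was tested.

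AMPA receptors are the ligand-gated cation channels that carry most fast excitatory transmission in the brain, and at CA1 synapses changes in their number underlie much of synaptic plasticity. Each channel is a tetramer of core subunits, the GluA proteins, which form the pore and bind glutamate. Auxiliary proteins join the tetramer and set its trafficking, anchoring and gating: the TARPs (transmembrane AMPA receptor regulatory proteins, encoded by Cacng genes), the cornichons, the Shisa or CKAMP family, and Prrt1, also called SynDIG4.

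The core subunits differ in a property set by a single codon in the pore. In Gria2, editing of the transcript by an adenosine deaminase changes a glutamine codon of the pore loop into one read as arginine, and channels with the edited subunit pass little calcium. The genomic codons are shown because the balance between Gria2 and the other subunits is the first quantity measured below, with the codon in capitals and 4 codons of coding sequence on each side.
Gria1: ggggccttcatgCAGcaaggatgtgac
Gria2: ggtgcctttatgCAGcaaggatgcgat
Gria3: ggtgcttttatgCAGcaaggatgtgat
Gria4: ggtgcctttatgCAAcaaggatgtgac
All 4 codons encode glutamine. They lie in exon 11 of the chosen transcript in each gene, at 57243094 to 57243096 on chromosome 11 for Gria1 (plus strand), 80706911 to 80706913 on chromosome 3 for Gria2 (minus strand), 41610265 to 41610267 on chromosome X for Gria3 (plus strand) and 4464137 to 4464139 on chromosome 9 for Gria4 (minus strand). Sequences are from GENCODE vM21 transcripts on GRCm38. Counts per gene hold no base calls, so the edited share of Gria2 transcripts was not measured.

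The 3 TARPs share their last 4 codons in meaning, though not in every base. These codons encode the ligand by which TARPs bind PDZ domains of PSD-95 family scaffolds at the synapse. The last 30 coding bases of each are given, with those 4 codons in capitals.
Cacng2: aacacagccaaccgccggACCACGCCCGTA
Cacng3: aatccggccaacagacgtACCACGCCTGTC
Cacng8: aacacgctcaacaggaaaACCACGCCCGTG
They lie at 77995152 to 77995181 on chromosome 15 (minus strand), 122768814 to 122768843 on chromosome 7 (plus strand) and 3415573 to 3415602 on chromosome 7 (plus strand), each within the last exon. The annotated Cacng8 coding sequence does not begin with a whole ATG-started frame, so its coding length is less certain. Across aligned coding sequence, identity was 68.8% to 72.7% between pairs of core subunits and 66.6% to 72.1% between pairs of these TARPs. Words of 31 bases shared between the protein-coding transcripts of 2 core subunits numbered 5 to 36, against 5463 to 10481 words in each gene, and no such word was shared between the TARPs. How reads that map to more than one gene were treated is not given in the sources used here.

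Libraries held 48159841, 25686630 and 15833075 counts in replicates 1, 2 and 3. The 10 genes together took 234338, 133653 and 80389 counts, or 0.487%, 0.520% and 0.508%. Levels are given as TPM, in which the genes included sum to 1000000 in each library, computed over the 21883 nuclear protein-coding genes. A TPM divides each count by the merged exon length of the gene, so that genes of different length can be set side by side within a library. All 8 CA1 pyramidal markers matched reached 1 TPM in every library, and their summed level was 1770 to 1951 TPM. Since 60.1% of nuclear protein-coding genes also reached 1 TPM in every library, passing it is no check of the sort. All 5 CA2 and all 5 CA3 markers passed too, with summed levels of 460 to 506 and 190 to 198 TPM. Most of the CA2 sum came from Pcp4 and Rgs14, with means of 337 and 119 TPM. Of the exon bases of Pcp4, 37.9% are shared with Igsf5. Amigo2, Cacng5 and Map3k15 had means of 12.6, 15.3 and 1.24 TPM. Means of the CA3 markers ran from 85.1 TPM for Grik4 down to 4.78 TPM for Nectin3. Markers of dentate granule neurons were also present, 6 of 6, with a summed level of 985 to 1106 TPM. The cells are therefore called tdTomato-positive cells below, and in bulk RNA the share of cells that express a gene and the level per cell cannot be told apart.

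All 10 AMPA receptor genes were detected, that is, had a CPM (the count scaled to a library total of 1000000) of at least 1 in each replicate. The same rule was passed by 30.3% of all genes in the table and by 57.0% of nuclear protein-coding genes. Gria1 and Cnih2 had the highest levels of the 10, and Gria4 the lowest.

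**Figure D1:**
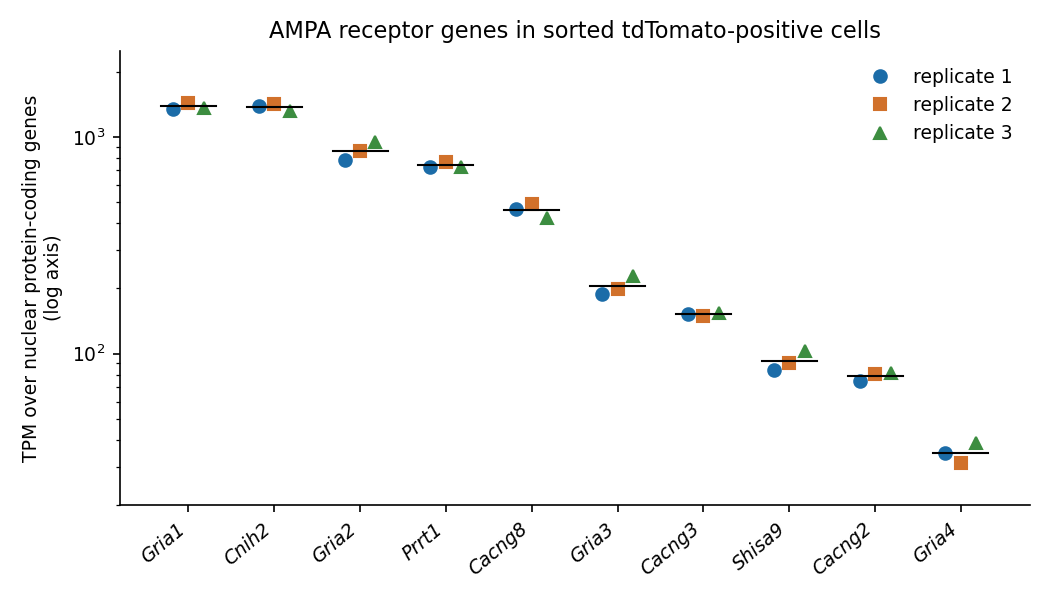
TPM on a log axis for each of the 10 AMPA receptor genes in 3 replicates of tdTomato-positive cells, ordered by mean, with the mean as a black line. Gria1 and Cnih2 lie together near the top, at means of 1383 and 1379 TPM, and Gria4 lies lowest at 34.8 TPM.

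Gria1, which encodes GluA1, the subunit most closely tied to activity-dependent insertion at CA1 synapses, had 1347, 1436 and 1365 TPM in replicates 1, 2 and 3. Its mean was 1383 ± 47.1 TPM (SD, n = 3), rank 38 among nuclear protein-coding genes. Gria2, which encodes the edited subunit GluA2, had 781, 864 and 947 TPM, with a mean of 864 ± 83.3 TPM and rank 94. The replicates of these genes did not overlap, and Gria1 lay above Gria2 in each library on this scale. Gria3, which encodes GluA3, had 187, 199 and 227 TPM, below both in every library. Its mean was 205 ± 20.6 TPM, rank 959. Gria4, which encodes GluA4, a subunit known from fast-spiking interneurons and some glia, had 34.7, 31.1 and 38.6 TPM. It was the lowest core subunit in every library, with a mean of 34.8 ± 3.73 TPM, at or above 47.6% of detected nuclear protein-coding genes. That level still rested on 1826, 866 and 627 counts, far above the 3 counts that a count of 0 allows, which for Gria4 is 0.0571 to 0.184 TPM (counting error only).

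As shares of the summed core level, Gria1 made up 57.3%, 56.8% and 53.0% in replicates 1, 2 and 3, and Gria2 33.2%, 34.1% and 36.7%. Gria3 made up 8.22% ± 0.520 and Gria4 1.40% ± 0.149 (SD, n = 3). Gria1 and Gria2 thus held most of the core subunit transcripts in every library. Which of them led depended on the length that the counts were divided by. In raw counts Gria2 was ahead, with 101208, 59305 and 37986 counts against 67886, 38340 and 21282 for Gria1. The log2 ratio of Gria1 to Gria2 was 0.68 ± 0.14 (SD, n = 3) with merged exon lengths, 0.22 ± 0.14 with the longest protein-coding transcript and -0.72 ± 0.14 with the longest coding sequence. Within each of these lengths the sign was the same in all 3 libraries, so the change of order comes from the length and not from the spread between replicates.

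**Figure D2:**
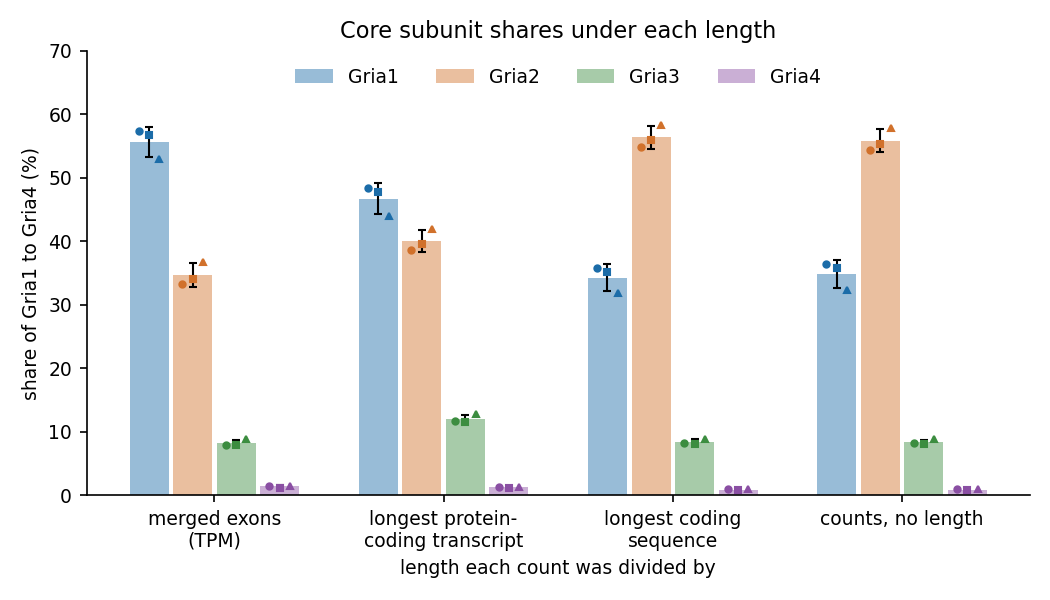
Share of each core subunit in the sum of Gria1 to Gria4, in percent, under 4 choices of the length that counts are divided by; bars give the mean and SD over 3 replicates, which are drawn as points. Gria1 leads with merged exons at 55.7% and Gria2 leads with coding sequence at 56.4%, while Gria3 and Gria4 keep the third and the fourth place under all 4 choices.

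The lengths themselves show where the difference arises. Gria2 spans 80681450 to 80802835 on chromosome 3, with 15548 bp of merged exons, while Gria1 spans 57011387 to 57330244 on chromosome 11 with 6043 bp. Their coding sequences are close, at 2649 and 2721 bp. Of the Gria2 exon bases, 5177 bp lie within the coding span but outside the coding sequence of the chosen transcript, in exons of other annotated transcripts, and 7271 bp lie after the last coding base. The same parts of Gria1 are 390 and 2601 bp. Gria3, on chromosome X from 41400854 to 41678601, resembles Gria2, with 4263 of its 9859 bp in the first class. Gria4, on chromosome 9 from 4417896 to 4796234, has 705 of 6305 bp there. A merged length counts such bases as if every transcript carried them, which lowers the TPM of a gene whose transcripts mostly do not. Whether they do was not measured, since the table holds no counts per exon.

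**Figure D3:**
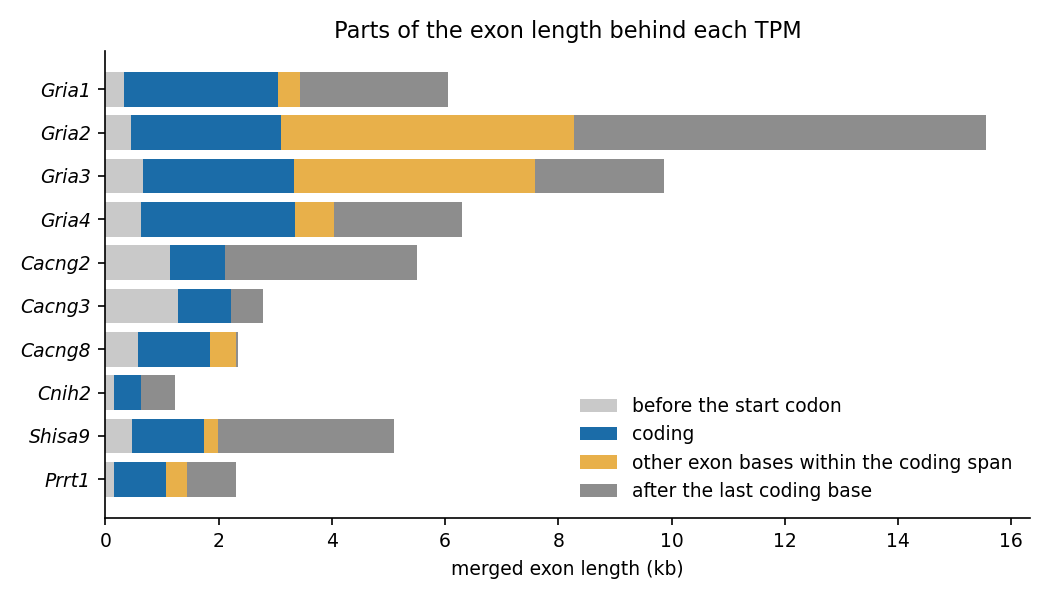
Merged exon length in kb of each AMPA receptor gene, split into bases before the start codon, coding bases, other exon bases within the coding span, and bases after the last coding base; the parts are summed and not drawn in genomic order. Gria2 has the longest bar at 15548 bp, of which 2649 bp are coding, and Cnih2 the shortest at 1237 bp.

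Among the TARPs, Cacng8, which encodes TARP gamma-8, the family member known for its abundance in the hippocampus, was the highest. It had 467, 491 and 424 TPM in replicates 1, 2 and 3, with a mean of 461 ± 33.8 TPM (SD, n = 3) and rank 256. Cacng3, which encodes gamma-3, had 152, 149 and 154 TPM, with a mean of 152 ± 2.84 TPM. Cacng2, which encodes gamma-2 or stargazin, the first TARP described, had 74.6, 80.1 and 81.1 TPM, with a mean of 78.6 ± 3.49 TPM. The 3 TARPs kept this order without overlap in every library. Cacng8 made up 66.6% ± 2.04 of their summed TPM, Cacng3 22.0% ± 1.37 and Cacng2 11.4% ± 0.803. Cacng8 led under every length tried, with a lowest mean share of 48.8% with coding length, but Cacng2 and Cacng3 were level there, at 25.6% ± 1.37 and 25.6% ± 1.22. The annotation differs between the TARPs: the exons of Cacng8, on chromosome 7 from 3390683 to 3415648, end 46 bp after the last coding base. For Cacng2, on chromosome 15 from 77991748 to 78120028, 3404 of 5510 bp lie after it, and for Cacng3, on chromosome 7 from 122670492 to 122769393, 550 of 2777 bp. Reads beyond an annotated end are not in a gene's count. Of the exon bases of Cacng2, 5.86% are shared with another annotated gene, and of Cacng8 3.88%.

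The other auxiliary proteins included some of the most abundant transcripts of the set. Cnih2, a cornichon that helps AMPA receptors leave the endoplasmic reticulum and slows their gating, had 1392, 1423 and 1323 TPM in replicates 1, 2 and 3. Its mean of 1379 ± 50.9 TPM (SD, n = 3) put it at rank 40, beside Gria1, and it was higher than Gria1 in replicate 1 only. Prrt1, a transmembrane protein of native AMPA receptor complexes, had 729, 766 and 725 TPM, with a mean of 740 ± 22.8 TPM and rank 123. Shisa9, also called CKAMP44, which modulates the short-term plasticity of AMPA receptor currents, was lower, at 83.5, 90.0 and 103 TPM. Its mean was 92.2 ± 9.93 TPM. These genes lie on chromosome 19 from 5092871 to 5098418 (Cnih2), on chromosome 17 from 34629533 to 34633126 (Prrt1) and on chromosome 16 from 11984113 to 12270902 (Shisa9). Cnih2 has the shortest exons of the 10 genes, 1237 bp in all, so that 14356, 7774 and 4222 counts gave a TPM near that of Gria1. Its longest GENCODE vM21 transcript, at 1343 bp, is longer than the exons in the deposited table.

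In the order of mean TPM, from Gria1 through Cnih2, Gria2, Prrt1, Cacng8, Gria3, Cacng3, Shisa9 and Cacng2 to Gria4, 8 of 9 neighbouring pairs had the same order in all 3 libraries. The means come from these same libraries, which favours agreement, so the count is a description only. The order itself held for merged exon lengths: with coding lengths Gria2 came before Cnih2 and Gria1, and Cacng2 and Cacng3 before Shisa9, and with the longest protein-coding transcripts Gria2 came before Cnih2. The exception with merged exons was Gria1 and Cnih2, with log2 differences of -0.05, 0.01 and 0.05. The next closest pairs were Gria2 over Prrt1, at 0.10, 0.17 and 0.39, and Shisa9 over Cacng2, at 0.16, 0.17 and 0.35. An exact sign-flip permutation over 3 pairs cannot give a two-sided p below 0.25, so no p is given for these pairs. The 6 auxiliary genes together lay above the 4 core genes, with a log2 ratio of summed TPM of 0.22 ± 0.09 (SD, n = 3). This sign turned with coding lengths, at -0.25 ± 0.11, and with the longest protein-coding transcripts, at -0.08 ± 0.10, where replicate 1 stayed at 0.01. The summed level of the 3 TARPs among the 10 genes, 691 ± 30.2 TPM, was below the summed core level of 2486 ± 121 TPM in every library. TARPs outside the 10, of which Cacng7 had a mean of 194 TPM, are not in this sum.

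AMPA receptor subunits outweighed the other ionotropic glutamate receptors at the level of transcripts per length. The 7 NMDA receptor subunit genes summed to 1026, 1124 and 1109 TPM in replicates 1, 2 and 3, against 2350, 2530 and 2579 TPM for Gria1 to Gria4. The log2 ratio of AMPA to NMDA subunits was 1.19 ± 0.02 (SD, n = 3) and ranged from 1.17 to 1.22 over the libraries. In counts without length it was 0.29 ± 0.04, since the NMDA receptor genes Grin2a and Grin2b have long exons, of 17933 and 24842 bp. The 5 kainate receptor subunit genes summed to 644, 646 and 650 TPM, and the log2 ratio of AMPA to kainate subunits was 1.94 ± 0.06.

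The coefficient of variation of their normalized counts, which are counts divided by the size factor of each library, ranged from 2.63% for Cacng2 to 10.4% for Cacng8. The median was 6.11%, beside 9.93% over 15955 detected genes and 6.78% over the 5315 detected genes with mean counts in the range of the 10. Counting error alone would give 0.429% for Gria2 up to 3.33% for Gria4. In Cacng2 the spread of 2.63% was close to the 2.36% that counting gives, and in Cacng3 3.22% stood beside 2.38%, while in the other 8 genes the spread was wider relative to counting error. Without replicate 3, the library with the fewest counts, the median over the 10 genes was 3.13%, and that over the 5315 genes was 4.42%. The order turned without replicate 1, at 6.57% for the 10 genes and 5.83% for the 5315, and without replicate 2, at 7.06% and 6.43%.

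The deviation of replicate 3 moved with base composition. Compared with replicate 1, replicate 3 was higher in log2 normalized counts for Gria2, Gria3 and Shisa9, by 0.17, 0.17 and 0.20. It was lower for Cacng8, Cnih2 and Prrt1, at -0.24, -0.18 and -0.12. The longest protein-coding transcripts of the first 3 genes have a GC content of 36.8%, 43.0% and 47.2%, and those of the last 3 have 65.1%, 62.3% and 62.5%. Across the 10 genes, GC content and the log2 difference of replicate 3 over 1 had a Spearman rho of -0.89. Over 12454 detected nuclear protein-coding genes rho was -0.38. For replicate 2 over 1 the values were -0.42 and 0.01. The points of each correlation share the same libraries and are genes, not replicates, so no p is given. Merged exon length moved with the same difference, with a rho of 0.76 over the 10 genes and 0.17 over 12471 genes. The part of base composition, length or depth in the spread of these genes was not tested. The Gria1 share was lowest and the Gria2 share highest in replicate 3, and without that library their means were 57.0% and 33.7%.

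**Figure D4:**
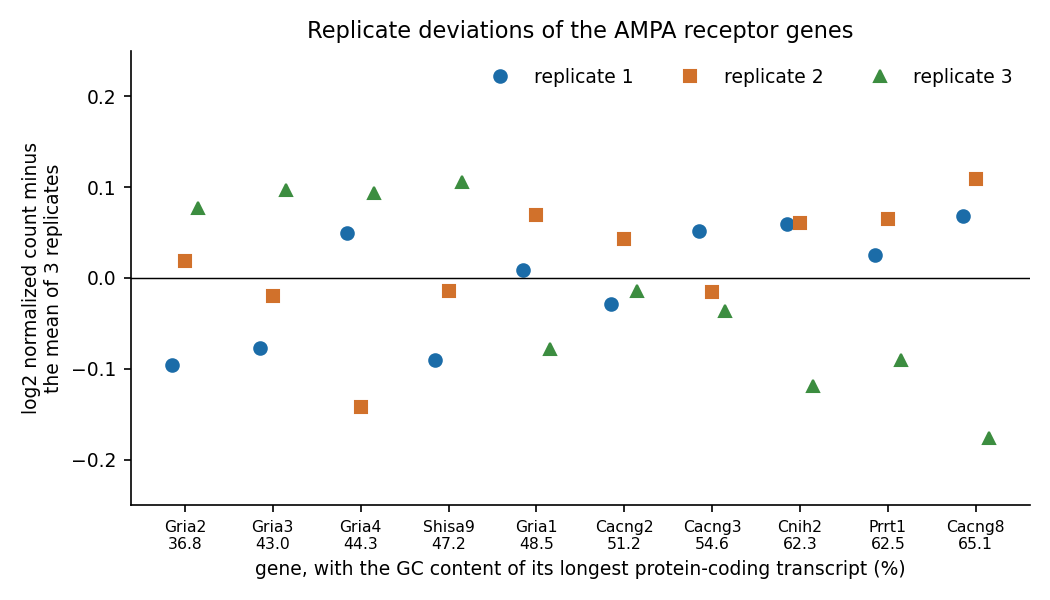
Log2 normalized count of each AMPA receptor gene minus its mean over 3 replicates, with genes ordered by the GC content in percent of the longest protein-coding transcript. Replicate 3 lies above 0 for the genes of lower GC content, Gria2 to Shisa9, and below 0 for the others, down to Cacng8, while Gria4 is lowest in replicate 2.

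Gria4 deviated in another way, being lowest in replicate 2, at -0.14 from its mean on the log2 scale, and higher in replicates 1 and 3, at 0.05 and 0.09. Of the 9 other auxiliary subunit genes described below, 4 were also lowest in replicate 2: Cacng4 at 2.60 TPM in replicate 2 against 5.37 and 4.01, Cacng5 at -0.25 from its mean log2 normalized count, Gsg1l at 46.6 against 55.2 and 59.5, and Shisa8 at 1.63 against 3.12 and 3.65. Cacng4 and Shisa8 rest on few counts there, 41 and 13. The other 5, Cacng7, Cnih1, Cnih3, Shisa6 and Shisa7, lay above their mean in replicate 2, at 0.04 to 0.09 on the log2 scale. The share of all detected genes that were lowest in replicate 2 is not given here. The count of 4 of 9 therefore has no background and is not read as a shared pattern with Gria4. Cacng4 and Cacng5 encode the TARPs gamma-4 and gamma-5. Some marker lists of other cell types were lowest in replicate 2 too, and others were not. Dentate granule markers summed to 1106, 985 and 1077 TPM in replicates 1, 2 and 3. CA3 markers summed to 198, 190 and 192 TPM, although the median of that list was lowest in replicate 3. The sums for CA1 markers, at 1842, 1951 and 1770 TPM, and CA2 markers, at 506, 489 and 460 TPM, were lowest in replicate 3. So was that for excitatory neuron markers, at 4117, 4145 and 3995 TPM. The 7 astrocyte markers, all at 1 TPM or more, summed to 260, 162 and 327 TPM in replicates 1, 2 and 3. The 8 interneuron markers, of which 3 reached 1 TPM in every library, summed to 94.8, 72.6 and 116 TPM. Among these, Slc32a1 and Vip had 0 counts in replicates 2 and 3, and Pvalb, a marker of fast-spiking interneurons, had 3, 1 and 3 counts. The 5 oligodendrocyte precursor markers, 3 of them at 1 TPM or more, summed to 30.4, 11.7 and 23.1 TPM. Their genes did not all follow the sum. Gpr17, C1ql1 and Olig2, which is also in the oligodendrocyte list, were lowest in replicate 2. Pdgfra was lowest in replicate 3, at 0.232 TPM, and Cspg4 in replicate 1, at 0.673 TPM. Oligodendrocyte markers were mixed: their sum was 821, 905 and 811 TPM, with Mbp and Mobp highest in replicate 2, but Cnp, Mag, Mog, Olig1 and Olig2, 5 of the 8 genes, were lowest there, and the median of the list was 66.5, 47.4 and 68.7 TPM. The summed level was lowest in replicate 1 for microglia markers, at 37.5, 47.0 and 53.8 TPM, and for endothelial markers, at 8.51, 18.7 and 69.1 TPM. The part of other cells in the Gria4 level was not tested.

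The remaining proteins known from AMPA receptor complexes were taken from 4 lists with 39 genes. Of these, 38 had at least 1 TPM in each replicate, a level reached by 60.1% of nuclear protein-coding genes, and these lists were written with earlier results of these data known. All 9 other auxiliary subunits passed, and 8 of them, all but Shisa8, also met the CPM rule used for the 10 genes. Shisa7, or CKAMP59, led them with 343 ± 6.36 TPM (SD, n = 3), above its relative Shisa9 in every library, and Shisa6, or CKAMP52, had 125 ± 5.45 TPM. Cnih3, the other cornichon that binds AMPA receptors, had 225 ± 14.4 TPM, well under Cnih2, and Cnih1, a relative known from the secretory pathway, 152 ± 4.50 TPM. Among the TARPs outside the 10, Cacng7 (gamma-7) had 200, 201 and 182 TPM, above Cacng2 and Cacng3 in every library, while Cacng5 and Cacng4 had means of 15.3 ± 2.93 and 3.99 ± 1.39 TPM. Gsg1l, an auxiliary subunit that dampens recovery from desensitization, had 53.8 ± 6.55 TPM.

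Of the 18 complex and assembly proteins, 17 had at least 1 TPM in each replicate. Olfm1, which encodes the secreted protein noelin, was the highest gene of all the lists on AMPA receptor proteins, with 1945, 2039 and 1951 TPM and rank 15. Nptx1 and Nptxr, the neuronal pentraxins that cluster AMPA receptors from outside the cell, had 759 ± 24.5 and 577 ± 23.7 TPM (SD, n = 3), and Nptx2 had 131 ± 11.9 TPM. The factors that build the receptor in the endoplasmic reticulum were present as well, with 653 ± 66.0 TPM for Frrs1l and 156, 178 and 159 TPM in replicates 1, 2 and 3 for Cpt1c. Abhd6, a hydrolase that limits receptor delivery, had 150.5 ± 2.16 TPM, and Porcn 201 ± 22.2 TPM. Syndig1, a relative of Prrt1, lay below Prrt1 in every library, with 75.6 ± 2.27 TPM. Vwc2, the only gene of the 39 below 1 TPM, had 12, 7 and 0 counts. Prrt2 had 6.06 ± 1.79 TPM, but 92.4% of its exon bases are shared with the annotated gene Gm42742, and 48.2% of those of Sacm1l with Slc6a20b, so that their counts are uncertain.

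All 9 trafficking and anchoring genes had at least 1 TPM in each replicate. Dlg4, which encodes PSD-95, the scaffold that binds the TARP ends printed above, had 661 ± 20.8 TPM (SD, n = 3). Nsf, an ATPase that binds the GluA2 tail, had 558 ± 32.0 TPM. The PDZ proteins that bind the tails of GluA2 and GluA3 were lower, with 34.1 ± 1.33 TPM for Pick1, 16.6 ± 0.636 TPM for Grip1 and 2.41 ± 0.370 TPM for Grip2. Dlg1, which encodes SAP97, a partner of GluA1, had 58.6 ± 6.93 TPM, and Akap5, an anchor for kinases and calcineurin near the receptor, 65.5 ± 7.51 TPM. Of the RNA editing genes, Adarb1, whose product ADAR2 edits the Gria2 codon printed above, had 65.6, 58.5 and 65.8 TPM. Adar had 91.2, 80.5 and 88.8 TPM and Adarb2, which encodes a family member without known editing activity, 21.0, 20.8 and 26.1 TPM. Of the exon bases of Adar, 16.8% are shared with another gene.

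**Figure D5:**
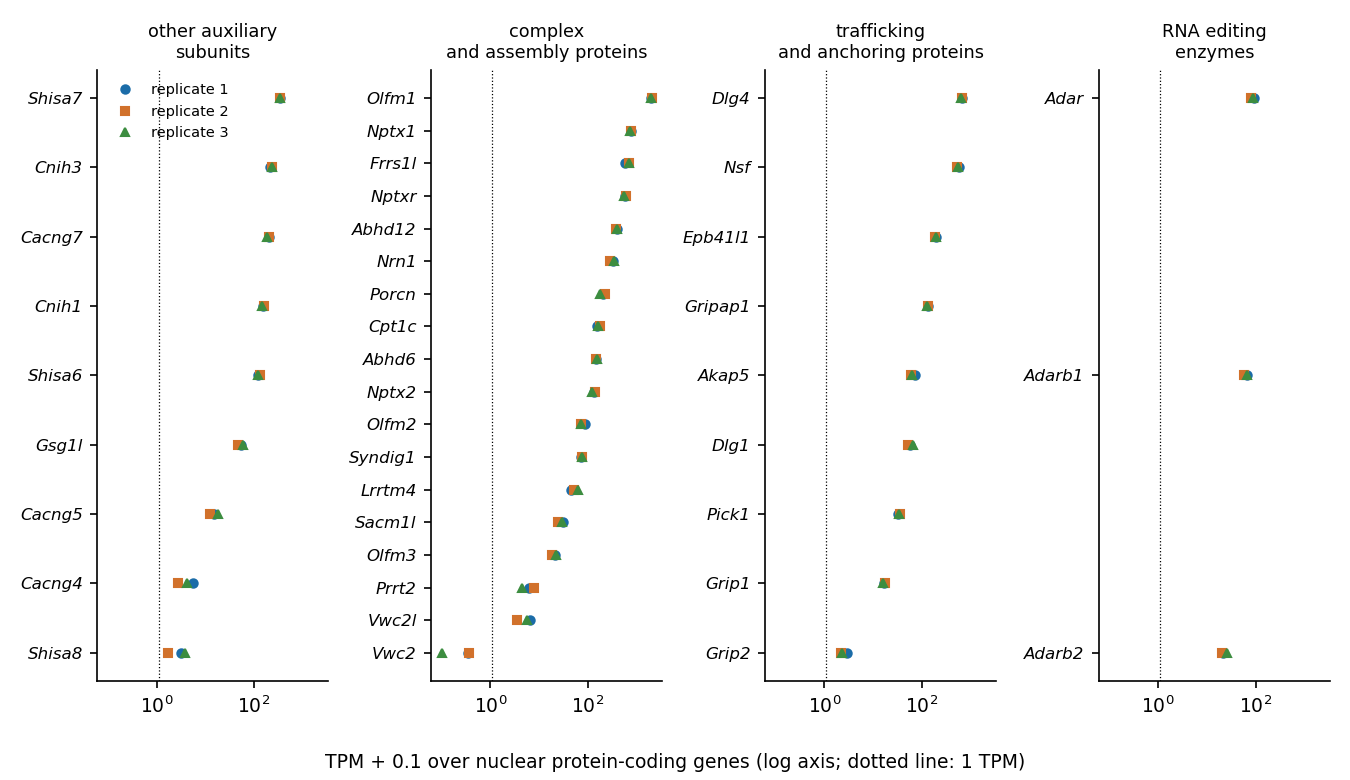
TPM plus 0.1 on a log axis for 39 genes of 4 lists of AMPA receptor proteins in 3 replicates, with a dotted line at 1 TPM. Points of 38 genes lie right of the line in every replicate, from means of 2.41 TPM for Grip2 and 2.80 TPM for Shisa8 to 1978 TPM for Olfm1, and Vwc2 lies left of it.

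Genes with a level like that of the receptor were found by the root mean square difference of log2 TPM with a pseudocount of 1 over the 3 libraries. Nearest to Gria2 were Atp2b1, a calcium pump of the plasma membrane, Pgrmc1, Rsrp1, Snap25, a SNARE protein of vesicle fusion, and Rbfox1, a neuronal splicing factor. Their differences were 0.07 to 0.11. Atp2b1 had 825, 909 and 924 TPM in replicates 1, 2 and 3, lowest in replicate 1 as Gria2 was. Nearest to the summed core level were Atp1b1, a subunit of the sodium-potassium ATPase, Gpm6a, Actb, Calm3 and Tmsb4x, at 0.08 to 0.25. Likeness here is over 3 libraries of a single group and says only that the levels were close.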

How the data were processed

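The authors aligned reads with STAR and counted them with featureCounts on mm10 (GRCm38), per the labels' processing notes, which give no versions. The values deposited are raw counts per gene with merged exon lengths. Strand, multimapping and whether reads or fragments were counted are not given in the sources used here. Genes were named by Ensembl identifier from GENCODE vM21 (52489 of 52636 matched), and the deposited length equalled the merged exons listed in the same table for all 52636 genes. A further 0 columns of samples were left out.

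TPM was computed from counts over 21883 nuclear protein-coding genes, which held 27.9% to 37.4% of TPM over all genes. Counts were normalized by the median-of-ratios method, with factors of 1.78, 0.963 and 0.592 for replicates 1, 2 and 3. The alternative was TMM (edgeR 4.0.16, R 4.3.3). Python 3.11.15, numpy 2.4.6, pandas 2.3.3, scipy 1.17.1, Biopython 1.88 and matplotlib 3.10.9 were used, and steps across genes were tested on simulated data.

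The members and lists were chosen with earlier results of these data known. Genes named were all members, the genes of 4 lists of AMPA receptor proteins, marker genes and the 5 genes nearest in level to Gria2 and to the summed core level. Sequences came from GENCODE vM21 transcripts. A RefSeq protein table was not used here, so coding lengths came from GENCODE. Counting error, as it follows from the counts alone, is given for Gria2, Gria4, Cacng2 and Cacng3. The 3 libraries differed by more than counting error (chi-square per gene 13.4 to 72.5), and the labels call them biological replicates.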

Additional observations from a re-analysis of the deposited data

How the results depend on the processing

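The length that counts were divided by changed more results than any other choice tried. Both annotated-length alternatives below were chosen after seeing the data. So were the ratio of Gria1 to Gria2 and that of the summed TARPs among the 10 genes to the core genes. The planned coding length from RefSeq proteins was not run. In counts without length, with the longest coding length and with the longest protein-coding transcript, in that order, the share of Gria1 was 34.9%, 34.3% and 46.7%, that of Gria2 55.8%, 56.4% and 40.02% and that of Gria4 0.914%, 0.904% and 1.25%. In the same order the share of Cacng2 was 22.4%, 25.6% and 9.84% and that of Cacng8 55.8%, 48.8% and 71.2%. Cacng3 moved to 25.6% with coding length and 18.996% with the transcript, and Gria3 to 12.01% with the transcript. The log2 ratio of Gria1 to Gria2 was -0.68, -0.72 and 0.22, and that of auxiliary to core genes -2.04, -0.25 and -0.078, so both turned sign. The log2 ratio of AMPA to NMDA subunits was 0.29, 0.89 and 1.01, and that of AMPA to kainate subunits was 2.55 in counts and 2.64 with coding length.

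Leaving out each replicate in turn gave a median coefficient of variation of 3.13% to 7.06%. The 10 genes were detected under every rule tried. Of 147 alternatives over 28 results, 95 stayed within the limit set for them, 47 lay outside and 5 turned sign. The limit was 1 SD of the replicates, or 1.5 times for counts of genes. For the median coefficient of variation it was 1 SD over the 10 genes. TPM over all genes, where protein-coding genes hold a smaller part, lowered the level of each of the 10 genes, from 1383 to 433 TPM for Gria1 and from 864 to 269 TPM for Gria2, and 34 in place of 38 of the other AMPA receptor proteins then reached 1 TPM. No paired contrast between conditions was possible because the series has a single group. The depth limits Cacng4, Shisa8 and Vwc2, which rest on few counts.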
